A study of Rattus norvegicus with 16 samples.

Results

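The Id genes (inhibitor of DNA binding) Id1, Id2, Id3 and Id4 were examined in the rat diencephalon, made up of the thalamus, the hypothalamus and their neighbours, during zinc deficiency and after zinc was returned. They were chosen by name, with the signals of these rats in view, and every probe set that the platform table assigns to 1 of the 4 symbols was taken. This gave 8 probe sets for 4 of the 14217 genes with a probe set of their own: 1 each for Id1 and Id3, 2 for Id2 and 4 for Id4. All 8 passed the filter on low signals. Because the signals of all 4 groups were in view, differences of the Id probe sets are given as a description, with no test.

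Each of 16 arrays carried RNA from the diencephalon of 1 male Sprague-Dawley rat, with 4 rats in each of 4 groups, and the rats entered the diets at 5 weeks of age. In the first experiment, zinc-deficient rats (ZD) ate freely for 10 days from food holding 0.6 mg zinc per kg. The pair-fed group (PF) was given control food holding 30 mg zinc per kg, matched in amount to what the deficient rats ate. In the second, recovery rats (ZR) had 10 days of the deficient food, the matched pair-fed rats (ZRPF) had 10 days of the control food, and both then had 6 days of a fixed 13 g ration of the control diet, 16 days in all. No group was both sufficient in zinc and freely fed, since food was restricted in the controls as well, and all groups had a choice test with 300 mM NaCl. In the recovery experiment, 1 ZRPF rat and 3 ZR rats had been removed for their salt preference. The arrayed rats had been picked as average in body weight, plasma zinc and salt preference, so that their spread is narrower than that of whole groups may be. Rats of the 10-day and 16-day experiments differed in age, ration and experiment, which cannot be told apart.

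Id proteins carry a helix-loop-helix dimerization domain but no basic DNA-binding region. They bind E proteins such as the products of Tcf3, Tcf4 and Tcf12 and keep them from pairing with tissue-specific basic helix-loop-helix (bHLH) factors, which holds back differentiation. Their transcription is a classic immediate response to bone morphogenetic protein (BMP) signals through Smad proteins, and in the brain they are found in astrocytes, neural stem cells, some neurons and the endothelium.

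The values were MAS5 signal intensities, taken as log2. Median signals ran from 156 to 172 over the arrays, and the first principal component, with 35.1% of the variance, separated the 10-day from the 16-day arrays. Of the markers listed for the tissue, 9 of 10 thalamic and 8 of 11 hypothalamic genes passed the filter, against 1 of 10 genes of the forebrain outside the diencephalon. Control probe sets for the 3 prime and 5 prime ends of the beta-actin transcript, which report on the integrity and processing of the RNA, differed by 1.37 to 1.73 (log2) on the 10-day arrays and by 2.05 to 2.48 on the 16-day arrays, with no overlap. For Gapdh the same difference was 0.05 to 0.15 and 0.15 to 0.30. These values stand beside every difference between 10 and 16 days given here, and their part in those differences was not tested. In bulk tissue, fewer cells of a type and less RNA per cell cannot be told apart.

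In the RefSeq annotation of the rat assembly GRCr8, Id1 lies on the plus strand at chr3:161671525-161672691, Id2 on the minus strand at chr6:47469162-47470995, Id3 on the plus strand at chr5:153656253-153657860 and Id4 on the minus strand at chr17:16595724-16598293. The 120 bases directly before each earliest annotated gene start are shown, because the diets differed in zinc and the core of the metal response element, the site bound by the zinc-sensing factor MTF-1, is among the letters searched. They cover chr3:161671405-161671524, chr6:47470996-47471115, chr5:153656133-153656252 and chr17:16598294-16598413, each written 5′ to 3′ on the strand of its gene. Capitals mark a TATA box (Id1) or a metal response core (Id2 and Id4).
Id1: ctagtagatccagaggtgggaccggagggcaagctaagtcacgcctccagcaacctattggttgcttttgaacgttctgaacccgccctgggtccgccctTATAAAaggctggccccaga
Id2: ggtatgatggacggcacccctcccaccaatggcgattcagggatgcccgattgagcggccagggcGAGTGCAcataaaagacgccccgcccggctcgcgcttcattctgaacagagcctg
Id3: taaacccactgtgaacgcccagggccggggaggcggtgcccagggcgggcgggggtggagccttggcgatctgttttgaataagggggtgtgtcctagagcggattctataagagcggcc
Id4: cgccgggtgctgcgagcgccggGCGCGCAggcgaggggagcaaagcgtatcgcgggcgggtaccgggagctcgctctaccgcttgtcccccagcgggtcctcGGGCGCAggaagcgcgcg

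The search covered both strands of the 250 bases before the start in the RefSeq promoter table. The metal response core, TGCACNC or TGCGCNC, matched once for Id2 and at 2 places for Id4, in each case on the strand opposite to the one printed. For Id3 it matched on both strands at overlapping positions, past the earliest gene start and so outside the line shown, and Id1 had no match. Of all 33469 promoters of this length, 20.6% held the core, so its presence is common. An E-box, CANNTG, the site of bHLH dimers, occurred once each for Id1 and Id2, outside the lines shown, and in 65.5% of all promoters. TATAAA was found for Id1 and in 12.9% of promoters. The GC-rich core of BMP response elements, GGCGCC (8.69% of promoters), and the CRE core TGACG (18.2%) matched in none of the 4 windows.

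Id1 is a dimerization partner that keeps progenitors and endothelial cells undifferentiated, and its signal overlapped between all groups. Probe set 1387028_a_at read 9.13, 9.37, 9.81 and 9.69 in PF rats 1, 2, 4 and 6, and 9.40, 9.51, 9.79 and 9.83 in ZD rats 2, 3, 8 and 9. In ZRPF rats 2, 4, 5 and 6 it read 9.63, 9.56, 9.52 and 9.69, and in ZR rats 7, 10, 13 and 15 it read 9.34, 9.71, 9.26 and 9.54. The ZRPF rats lay close together (SD 0.08), inside the range of the PF rats (SD 0.30). ZD exceeded PF by 0.13 ± 0.14 (log2 difference ± SE of the fit, n = 4 rats a group), and ZR was below ZRPF by a difference of -0.14 ± 0.14. From the lowest group mean to the highest, the order was ZR, PF, ZRPF, ZD, over a span of 9.46 to 9.63, and no neighbours differed beyond their spread.

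Id3, which overlaps with Id1 in vessels and in the developing brain, showed the same order of groups by its means. Probe set 1387769_a_at read 10.12, 10.10, 10.69 and 10.41 in PF and 10.66, 10.47, 10.25 and 10.69 in ZD. In ZRPF it read 10.55, 10.25, 10.47 and 10.32, and in ZR 10.29, 10.40, 10.13 and 10.39. PF rats 1 and 2 were the lowest of all 16, and every pair of groups overlapped. The difference of ZD from PF was 0.19 ± 0.12 and that of ZR from ZRPF -0.10 ± 0.12. Id1 and Id3 thus had means above PF in ZD and below ZRPF in ZR, and the change between these differences (the interaction) was -0.27 ± 0.19 for Id1 and -0.28 ± 0.17 for Id3.

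**Figure D1:**
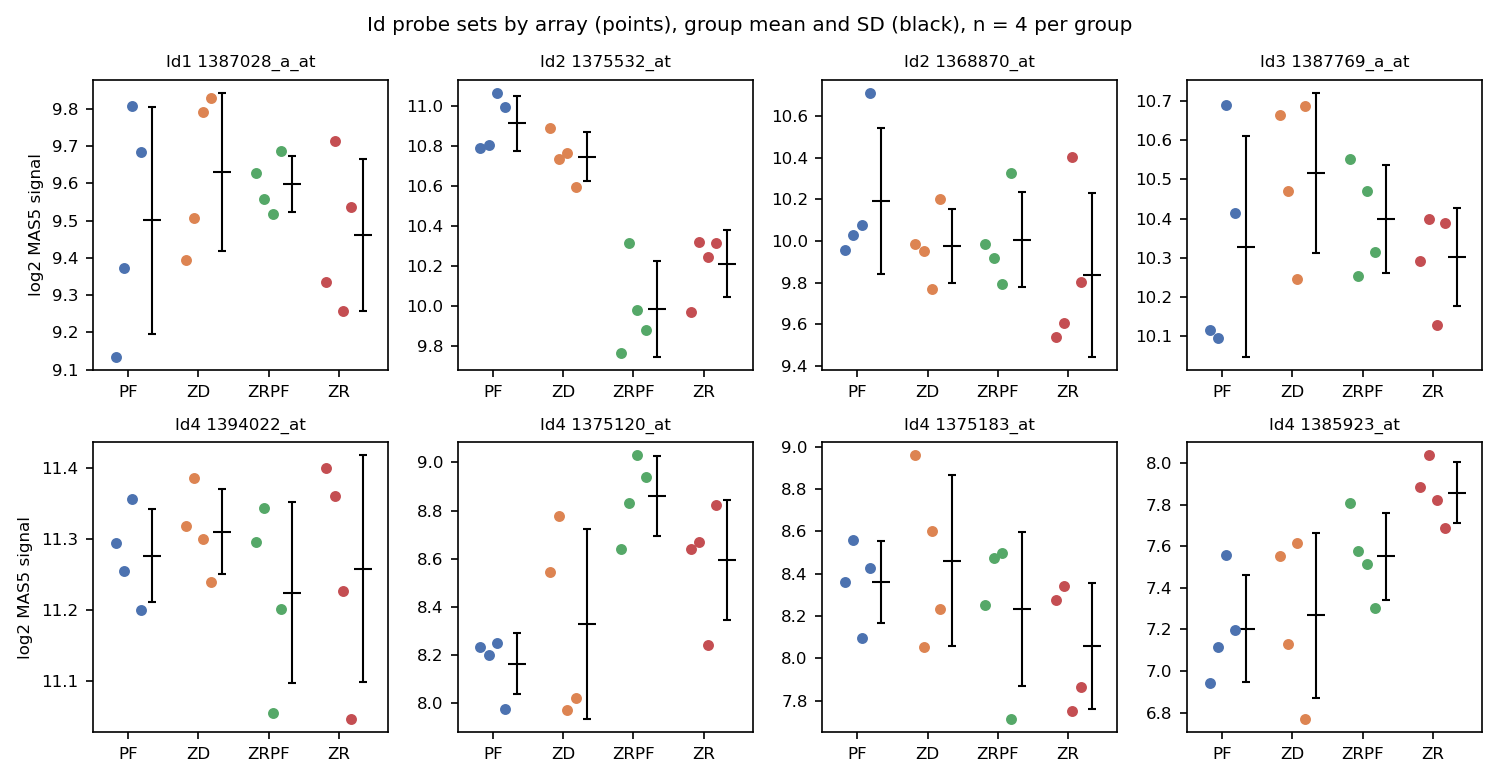
Log2 MAS5 signal of each of the 8 Id probe sets (panels, each with its own vertical scale that does not start at 0) in the 4 rats of PF, ZD, ZRPF and ZR; points are rats and black bars the group mean and SD. The panel of Id2 1375532_at shows the 8 rats of the 16-day groups below all 8 rats of the 10-day groups, which the panel of the other Id2 probe set does not.

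Id2, an inhibitor found in neurons as well as glial precursors, gave the largest differences of the family, at 1 of its 2 probe sets. Probe set 1375532_at read 10.79, 10.80, 11.07 and 10.99 in PF and 10.89, 10.73, 10.76 and 10.59 in ZD. It read 9.77, 10.32, 9.98 and 9.88 in ZRPF and 9.97, 10.32, 10.24 and 10.32 in ZR. All 8 rats of the 16-day groups lay below all 8 rats of the 10-day groups. The difference of ZRPF from PF was -0.93 ± 0.11, a signal ratio of 0.53, and that of ZR from ZD -0.53 ± 0.11, a ratio of 0.69. Over the alternative settings the first ranged from -1.04 to -0.85 and the second from -0.58 to -0.45.

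Within each experiment this Id2 probe set differed less. ZD was below PF by a difference of -0.17 ± 0.11, ZR was above ZRPF by 0.23 ± 0.11, and the groups overlapped in both. The interaction was 0.39 ± 0.16. The group means from lowest to highest were 9.99 ± 0.24 (SD) in ZRPF, 10.21 ± 0.17 in ZR, 10.75 ± 0.12 in ZD and 10.91 ± 0.14 in PF, and the step from ZR to ZD was the only one with no overlap between neighbours.

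The other Id2 probe set did not show this step. Probe set 1368870_at read 9.96, 10.03, 10.08 and 10.71 in PF, 9.99, 9.95, 9.77 and 10.20 in ZD, 9.99, 9.92, 9.79 and 10.33 in ZRPF, and 9.54, 9.61, 10.40 and 9.80 in ZR. All groups overlapped, and PF rat 6 and ZR rat 13 stood above the others of their groups. Its differences were -0.19 ± 0.18 for ZRPF against PF, -0.14 ± 0.18 for ZR against ZD, -0.22 ± 0.18 between ZD and PF, and -0.17 ± 0.18 between ZR and ZRPF. By their means, both Id2 probe sets were therefore lower in ZRPF than in PF and in ZR than in ZD, but by unequal amounts. For 1368870_at the difference of ZRPF from PF ranged from -0.29 to -0.01 over the settings and was smallest with PF rat 6 left out. Its mean was also higher in ZRPF (10.01) than in ZD (9.98).

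Id4, which in the brain is best known from neural stem cells and astrocytes, had 4 probe sets that did not move alike. The brightest of them, 1394022_at, was almost level: it read 11.29, 11.25, 11.36 and 11.20 in PF, 11.32, 11.39, 11.30 and 11.24 in ZD, 11.30, 11.34, 11.05 and 11.20 in ZRPF, and 11.40, 11.36, 11.23 and 11.05 in ZR. Its 5 differences ran from -0.05 to 0.03, with an SE of 0.08 (0.11 for the interaction). The 4 group means lay between 11.22 and 11.31 and no neighbours in their order differed beyond their spread. By signal this probe set stood at percentile 94.1 of all probe sets, the highest of the family, and the SE of its differences was the smallest of the family.

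Probe set 1375120_at of Id4 read 8.23, 8.20, 8.25 and 7.98 in PF and 8.64, 8.83, 9.03 and 8.94 in ZRPF. All ZRPF rats were above all PF rats, with a difference of 0.70 ± 0.16 and a ratio of 1.62. In ZD it read 8.54, 8.78, 7.97 and 8.02, with rats 2 and 3 apart from rats 8 and 9, and in ZR 8.64, 8.67, 8.24 and 8.82. ZR exceeded ZD by 0.27 ± 0.16 with overlap, ZD exceeded PF by 0.16 ± 0.16, and ZR was below ZRPF by a difference of -0.27 ± 0.16. The interaction was -0.43 ± 0.23.

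Probe set 1385923_at of Id4 was the dimmest of the family, with a mean of 7.47 beside the filter at 7.35. It read 7.55, 7.13, 7.62 and 6.77 in ZD and 7.88, 8.04, 7.82 and 7.69 in ZR. All ZR rats were above all ZD rats, with a difference of 0.59 ± 0.18 and a ratio of 1.50. PF rats read 6.94, 7.12, 7.56 and 7.20 and ZRPF rats 7.81, 7.58, 7.51 and 7.30, a difference of 0.35 ± 0.18 with overlap. The difference of ZR from ZD ranged from 0.42 to 0.71 over 15 alternative settings and was smallest with ZD rat 9 left out.

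The remaining Id4 probe set, 1375183_at, read 8.36, 8.56, 8.10 and 8.43 in PF, 8.96, 8.05, 8.60 and 8.23 in ZD, 8.25, 8.48, 8.50 and 7.71 in ZRPF, and 8.28, 8.34, 7.75 and 7.86 in ZR. It had the opposite sign to the other dim Id4 probe sets between 10 and 16 days, with -0.13 ± 0.20 for ZRPF against PF and -0.40 ± 0.20 for ZR against ZD. The groups overlapped in both.

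The share of probe sets past each threshold gives the background for these descriptions. For ZD against PF, limma called 0.0% of the 15521 probe sets tested (1220 had an unadjusted p under 0.05) and 4.19% had no overlap between the arrays of the groups, against 0 of 8 Id probe sets on both counts. For ZR against ZRPF the shares were 0.00644%, which is 1 probe set, and 2.98%, again against 0 of 8 Id probe sets. In neither comparison did an Id probe set have an unadjusted p under 0.05, beside 7.86% and 5.21% of all probe sets tested. With shares this small, 0 of 8 says nothing about the Id genes. The interaction called 0.0% of all probe sets and 0 of 8 Id probe sets. An unadjusted p under 0.05 in limma was held by 6.6% of all probe sets (1025) and by 1 of 8 Id probe sets, Id2 1375532_at. Because the signals of all 4 groups were in view at the choice, that p is no test of this probe set.

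Between the pair-fed groups, 15.7% of all probe sets were called, 9.5% higher and 6.15% lower in ZRPF, and 21.4% had no overlap. Of the 8 Id probe sets, 2 were called and 2 had no overlap, namely Id2 1375532_at (lower) and Id4 1375120_at (higher). For ZR against ZD, 17.3% of all were called, 9.16% higher and 8.18% lower, and 19.5% had no overlap. Of the Id probe sets 2 were called and 2 had no overlap, Id2 1375532_at (lower) and Id4 1385923_at (higher). Since these groups served to choose the family, nothing is read from the counts.

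**Figure D2:**
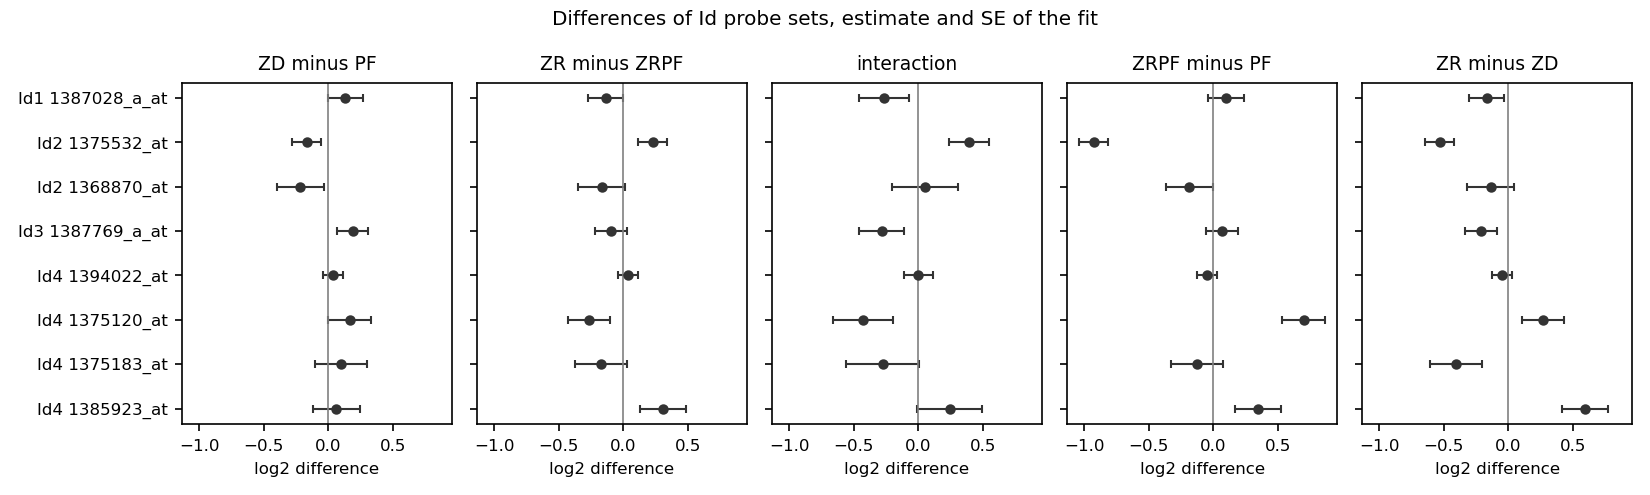
Log2 difference of each Id probe set (rows) in the 5 comparisons (panels), with points for the estimate of the fit and bars for its SE, and a line at 0. In the panels of ZRPF minus PF and ZR minus ZD, Id2 1375532_at lies far left of 0 (-0.93 and -0.53), whereas Id4 1394022_at lies between -0.05 and 0.03 in all panels.

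Probe sets of 1 gene were then set against each other within each array, which removes the scale of the array. The Id2 signal of 1375532_at exceeded that of 1368870_at by 0.72 ± 0.31 (SD) in PF and 0.77 ± 0.27 in ZD. In ZRPF the gap was -0.02 ± 0.38, with rats from -0.45 to 0.40, and in ZR it was 0.37 ± 0.38, from -0.16 to 0.72. By its mean the Id2 gap was thus wide in both 10-day groups, absent in ZRPF and in between in ZR. ZRPF and ZR each overlapped with both 10-day groups. The highest ZRPF rat (0.40) lay above the lowest PF rat (0.28) and just above the lowest ZD rat (0.39). For Id4, 1394022_at exceeded 1375120_at by 3.11 ± 0.08 in PF, 2.98 ± 0.34 in ZD, 2.36 ± 0.28 in ZRPF and 2.66 ± 0.32 in ZR, so that every ZRPF rat (2.02 to 2.65) lay below every PF rat (3.05 to 3.23). It exceeded 1385923_at by 4.07 ± 0.23, 4.04 ± 0.38, 3.67 ± 0.19 and 3.40 ± 0.08 in the same order, and every ZR rat (3.32 to 3.52) lay below every ZD rat (3.68 to 4.47). These gaps show unequal change of probe sets of the same gene, not which of them follows the transcript. The positions of the probes within the transcripts were not used here.

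Such disagreement can be placed among the 1984 genes with several tested probe sets. For ZRPF against PF, the largest and smallest differences within a gene were 0.74 apart for Id2 and 0.82 for Id4, and 7.61% and 6.15% of the genes had a gap as large (median 0.22). For ZR against ZD the gaps were 0.39 (26.1% of genes) and 0.99 (3.78%), with a median of 0.23. The median gap was larger in the comparisons across experiments than in those within them. For ZR against ZRPF they were 0.39 (4.84%) and 0.57 (0.907%), with a median of 0.12. For ZD against PF they were 0.05 (76.2%) and 0.13 (41.3%), with a median of 0.11. A gene with 4 probe sets, such as Id4, has more chances of a wide gap than one with a pair.

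**Figure D3:**
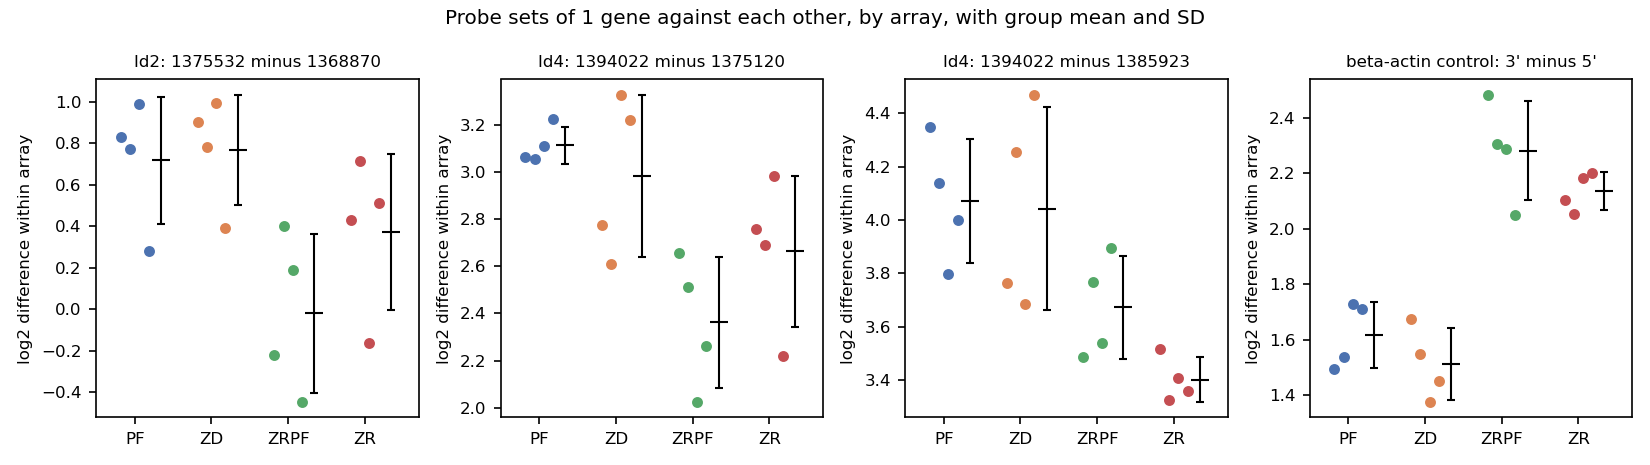
Difference in log2 signal between probe sets of 1 transcript within each array (points), with group mean and SD, for 1 pair of Id2, 2 pairs of Id4 and the 3 prime and 5 prime controls of beta-actin; each panel has its own vertical scale, which does not start at 0. In the 3 Id panels the ZRPF mean lies below the PF mean and the ZR mean below the ZD mean, while the beta-actin control lies at 2.05 or above on all 16-day arrays and at 1.73 or below on all 10-day arrays. The pair of Id4 1394022_at and 1375183_at, not drawn, goes the other way by its means (PF 2.92, ZRPF 2.99, ZD 2.85, ZR 3.20).

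Variation between rats of 1 group was compared after the group means were removed, which leaves 12 residual degrees of freedom over 16 arrays. The deviations of Id1 and Id3 correlated at r = 0.51 (0.49 after quantile normalization, and 0.32 to 0.72 with 1 array left out). Of all other genes tested, Id genes included, 3.59% reached as high an r to Id1. Both Id2 probe sets correlated at 0.06 only. Among the Id4 probe sets, 1375183_at and 1385923_at reached 0.46 and 1394022_at and 1385923_at 0.40, whereas 1375120_at had r values of 0.03, 0.01 and -0.07 with the others. These points share the arrays and their scaling, and the values describe these 16 rats.

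**Figure D4:**
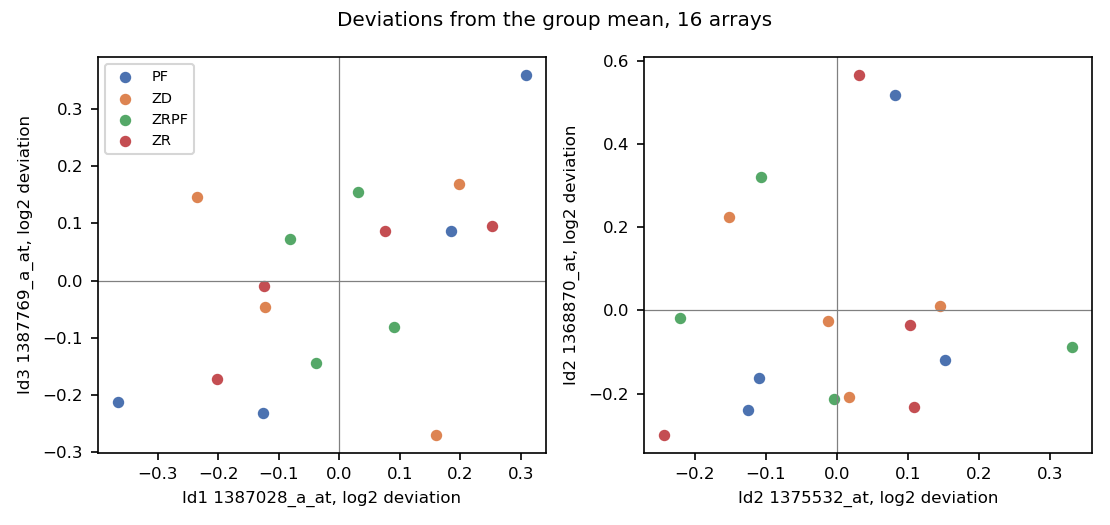
Deviation of the log2 signal from the group mean in 16 arrays, for Id3 against Id1 (left) and for the 2 Id2 probe sets against each other (right), colored by group. The left points run from lower left to upper right (r = 0.51), with a ZD rat far from this line at lower right, and the right points show no slope (r = 0.06).

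By the same measure, each gene standing by its brightest probe set, the genes most like Id1 were Fkbp5 (r = 0.85), Casq2 (0.83), Capn10 (0.83) and Maz (0.82). For Id2 they were Enpp6 (0.87), Cadm1 (0.82), Tecpr2 (0.81) and Tmem265 (0.76). None of these 8 is a member of the lists of bHLH and BMP genes. Id3 had Nf2 (0.86), Agt (0.85), Abcg2 (0.85) and Armcx3 (0.82). For Id4 they were Herc2 (0.86), Exoc5 (0.86), Lmbrd1 (0.85) and N4bp2l2 (0.84). The highest of 9274 values over 16 arrays is high by selection alone. Id genes were left out of this ranking, and r between different Id genes was at most 0.51 (Id1 and Id3).

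The genes that act with Id proteins were listed by role, 94 in all, of which 79 had a probe set of their own and 44 passed the filter. In the diet comparisons none of the 44 passed the test in limma: 8 (18.2%) had an unadjusted p under 0.05 for ZD against PF, 1 (2.27%) for ZR against ZRPF and 8 (18.2%) for the interaction, beside 7.86%, 5.21% and 6.6% of all probe sets tested. Between the pair-fed groups 4 rose and 2 fell, and between ZR and ZD 3 rose and 3 fell. This is 13.6% of the 44 in each, against 15.7% and 17.3% of all probe sets. Their median difference was 0.01, -0.01, 0.03 and 0.03 in ZD against PF, ZR against ZRPF, ZRPF against PF and ZR against ZD, beside 0.01, -0.01, -0.01 and -0.01 over all probe sets tested.

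The direct partners of the Id proteins are the E proteins. Of 3, Tcf4 and Tcf12 were tested, and Tcf3 was under the filter. Tcf4 rose by 0.26 ± 0.07 in ZR against ZD (adjusted p = 0.0202 in limma), with 0.23 ± 0.09 and an adjusted p of 0.0742 at its other probe set, and the call was lost in 4 of 16 alternatives: with ZD rat 9 or ZR rat 7 or 10 left out, at adjusted p of 0.0694, 0.072 and 0.0634, and in a fit to the arrays of these groups alone (0.0591). Among the listed neural and other bHLH factors, 6 of 28 were tested. Of these, Tal1, known from blood and endothelium, rose by 0.34 ± 0.11 in ZRPF (adjusted p = 0.0386 in limma), a call lost in 11 of 16 alternatives.

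The Hes and Hey repressors, bHLH proteins several of which are targets of Notch, had 4 of 9 members tested. Hes6 read 9.76, 9.85, 9.88 and 10.05 in ZD and 9.40, 9.51, 9.58 and 9.39 in ZR, and it fell by 0.41 on the log2 scale (SE 0.09, adjusted p = 0.00379) with no overlap. Against PF (9.65, 9.74, 9.49 and 9.53) the ZD rats were higher by 0.28 ± 0.09, also with no overlap, but this did not pass in limma (adjusted p = 0.401). Hey1 fell by 0.22 in ZR against ZD (SE 0.07, adjusted p = 0.0344), a call that 10 of 16 alternatives retained.

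**Figure D5:**
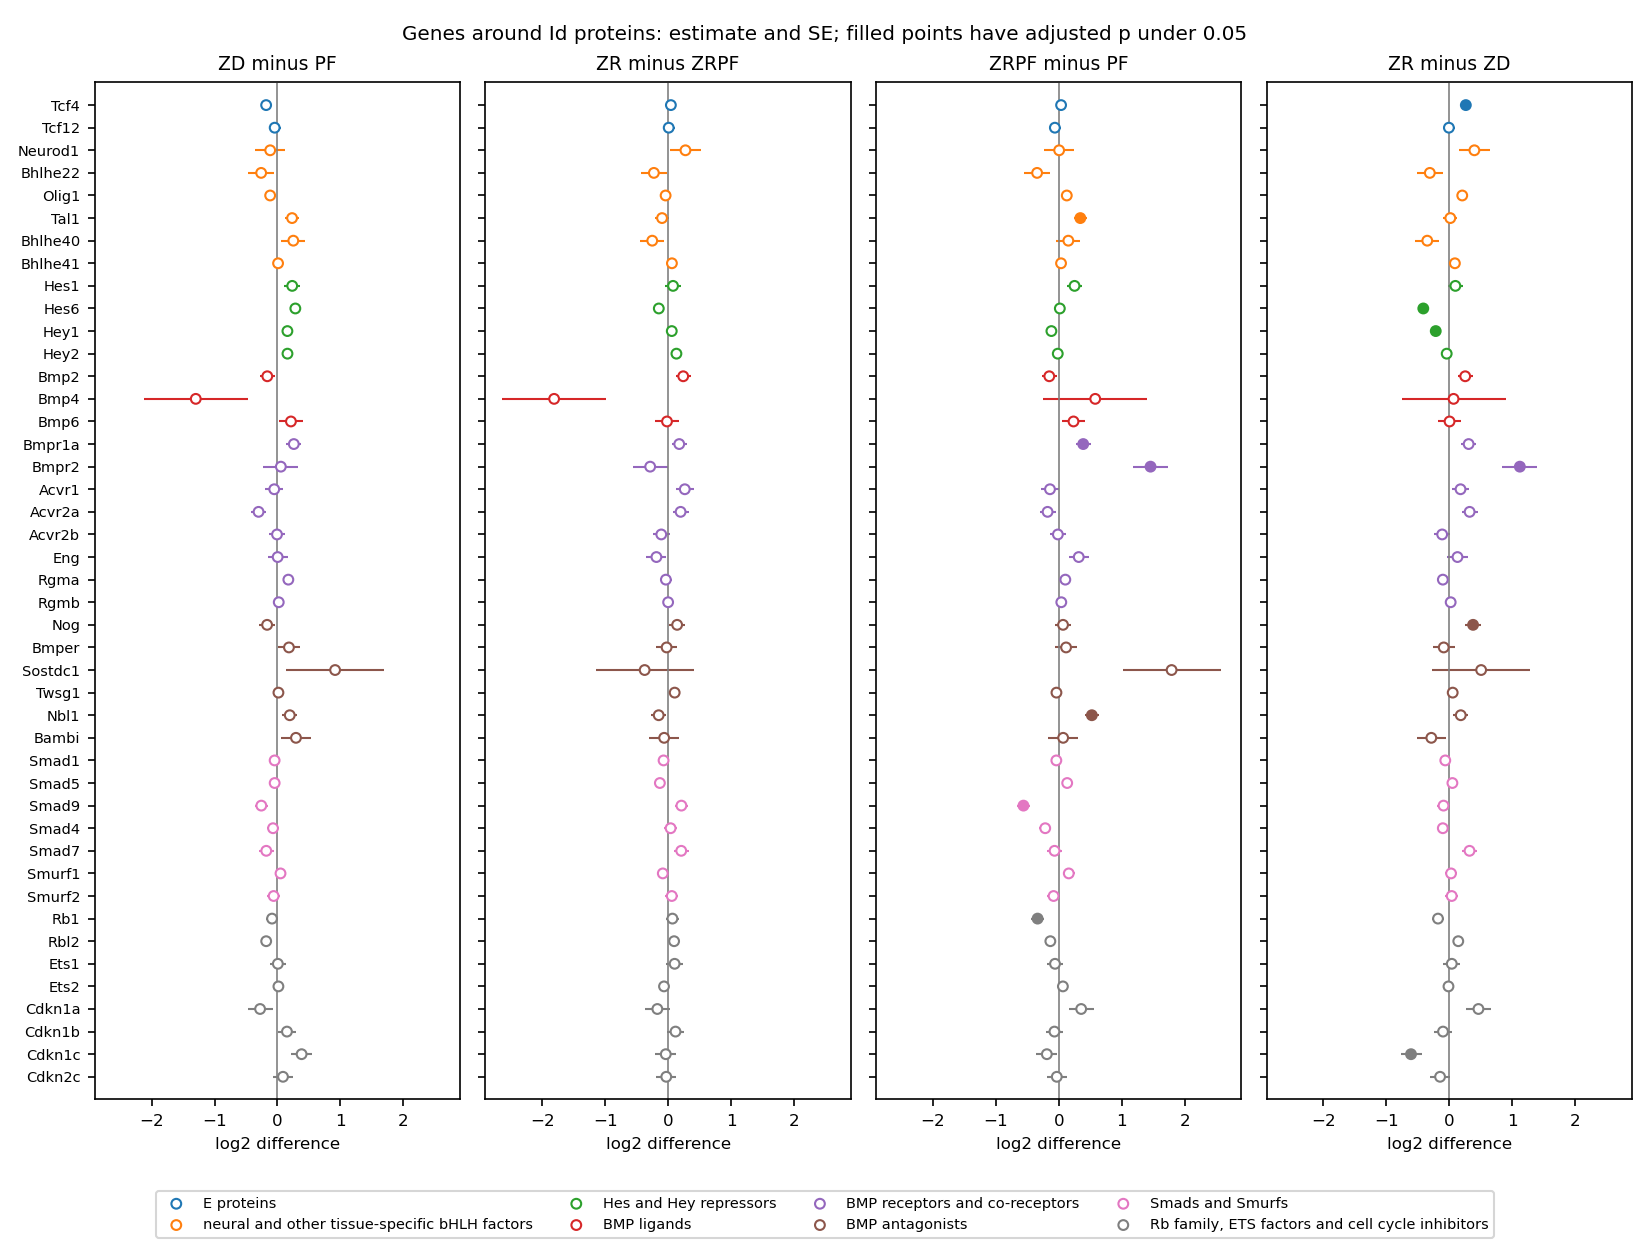
Log2 difference (point) and SE (bar) of the 44 tested genes around the Id proteins, in rows by gene and colored by role, for 4 comparisons; filled points have an adjusted p under 0.05. Filled points appear in the 2 right panels only, 6 in each, and Bmpr2 lies farthest from 0 among them (1.46 and 1.12).

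Upstream of the Id genes, Bmpr2, the type II receptor of BMP ligands, differed most among the listed genes that passed. It read 7.98, 8.26, 8.17 and 7.45 in PF, 8.52, 8.34, 7.61 and 7.61 in ZD, 10.00, 9.87, 9.04 and 8.78 in ZRPF, and 8.79, 9.29, 8.84 and 9.64 in ZR. All 16-day rats were above all 10-day rats. It rose by 1.46 ± 0.28 in ZRPF against PF (adjusted p = 0.0017 in limma) and by 1.12 ± 0.28 in ZR against ZD (adjusted p = 0.0101), and passed in 17 of 17 and 16 of 16 alternatives. Smad9, a transducer of BMP receptors, fell by 0.56 in ZRPF (SE 0.11, adjusted p = 0.00178), and all ZRPF rats (8.04 to 8.52) lay below all PF rats (8.74 to 8.93). Nbl1, a secreted BMP antagonist, rose by 0.53 ± 0.12 (adjusted p = 0.00492). In the fit with rat number as a replicate block, the adjusted p was 0.0635 for Smad9 and 0.0743 for Nbl1.

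The receptor Bmpr1a rose by 0.39 ± 0.12 in ZRPF (adjusted p = 0.0369) and the antagonist Nog by 0.38 ± 0.13 in ZR against ZD (adjusted p = 0.049), calls that held in 5 of 16 and 4 of 16 alternatives. Of the listed genes, 8 had further tested probe sets, 9 in all. In ZRPF against PF, 4 of these 9 rose where the brightest probe set of the gene did not pass, beside 9.5% of all probe sets called higher. The 4 belonged to the receptor Acvr1 (0.41 ± 0.11, adjusted p = 0.0131 in limma, against -0.14 at the brightest), the transducers Smad1 (0.54 ± 0.14, 0.0119, against -0.04) and Smad5 (0.42 ± 0.11, 0.0192, against 0.13), and Smurf2, a ubiquitin ligase for Smads (0.54 ± 0.14, 0.0131, against -0.08). The other further probe set of Smad5 was lower in ZRPF (-0.28 ± 0.10, adjusted p = 0.0668 in limma) and did not pass. The Smurf2 probe set also rose in ZR against ZD (0.58 ± 0.14, adjusted p = 0.00754, against 0.04). The ligand Bmp4 varied widely within groups, from 5.54 to 9.01 in ZR, and 0 of 3 ligands tested passed in any comparison (limma, with Bmp4 at an unadjusted p under 0.05 for ZR against ZRPF and Bmp2 for ZR against ZD and the interaction). Among cell cycle genes, Cdkn1c, an inhibitor of cyclin-dependent kinases, fell by 0.61 in ZR against ZD (SE 0.17, adjusted p = 0.0173), lost with ZD rat 8 (0.0567) or ZR rat 13 (0.0521) left out. Rb1, whose protein Id2 binds, fell by 0.34 in ZRPF (SE 0.10, adjusted p = 0.0302), with 11 of 17 alternatives past the threshold.

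Markers of cells that express Id genes, or could enter the dissection, were followed as lists. Astrocyte markers (12 of 14 tested) had a mean difference of -0.05 in ZD against PF, -0.11 in ZR against ZRPF, 0.12 in ZRPF against PF and 0.05 in ZR against ZD. Their summed signals were 78747 to 95442 in PF and 90503 to 104121 in ZRPF. Past the threshold, 2 astrocyte markers were higher in ZRPF against PF and 1 was higher in ZR against ZD. Endothelial markers (12 of 14) were at 0.19 in ZD against PF, with 10 of 12 above 0 and none past the threshold. In ZR against ZD the endothelial list was at -0.15, with 10 of 12 below 0 and 1 past the threshold. Meningeal and mural markers (11 of 16) were at 0.37, with 10 of 11 above 0, and -0.52, with 10 of 11 below 0 and 5 past the threshold. Id1 and Id3 lay on the same side of 0 as the endothelial list and the meningeal and mural list in ZD against PF (0.13 and 0.19) and in ZR against ZD (-0.17 ± 0.14 and -0.21 ± 0.12). In ZRPF against PF the 2 genes lay on the other side (0.10 ± 0.14 and 0.07 ± 0.12, with the lists at -0.03 and -0.05). In ZR against ZRPF, where Id1 and Id3 were at -0.14 and -0.10, the endothelial list was at 0.06 with 8 of 12 above 0, and the meningeal and mural list at -0.10. Ependymal and tanycyte markers (5 of 10 tested) were at 0.28 in ZD against PF, with 5 of 5 above 0, and at -0.28 in ZR against ZD, with 5 of 5 below 0 and 2 past the threshold. They were at -0.19 in ZR against ZRPF, with 4 of 5 below 0. In ZRPF against PF they were at 0.18, with 3 of 5 above 0 and 1 past the threshold. By its mean this list was on the same side of 0 as Id1 and Id3 in each of these comparisons. Choroid plexus markers (6 of 13) were at 0.84 in ZD against PF, with 6 of 6 above 0 and none past the threshold, and at -0.24 in ZR against ZRPF. The median of this list in ZD against PF was lower, at 0.35, and its largest difference was that of Ttr (3.15 ± 1.28). The part of such cells in the Id signals was not tested.

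The hypothalamic markers separated the experiments. Their summed signal was 28121 to 32966 in PF and 24840 to 34134 in ZD, and 40222 to 44473 in ZRPF and 36918 to 42965 in ZR, with mean differences of 0.44 (ZRPF against PF) and 0.49 (ZR against ZD) and 4 of 8 tested genes past the threshold in each. Thalamic markers were at -0.14 and 0.06, and choroid plexus markers at 1.16 and 0.09. For choroid plexus the medians were 0.86 and 0.16, and Ttr differed most in ZRPF against PF (3.49 ± 1.28). Neuronal markers (8 of 10 tested) were at 0.09 and 0.12, with 1 higher past the threshold in each. Oligodendrocyte lineage markers (11 of 12) were at -0.06, with 1 higher and 2 lower past the threshold, and at -0.09, with 1 lower. Microglial markers (8 of 13) were at 0.14, with 1 higher past the threshold, and at 0.002, with 0 past it. Between the same groups Id2 1375532_at fell (-0.93 and -0.53). Id4 1375120_at rose in ZRPF against PF (0.70) and Id4 1385923_at in ZR against ZD (0.59). Of all probe sets, 15.7% and 17.3% were called in these comparisons, so a shift at the same time does not link these probe sets to the list. The part of the hypothalamic and the other lists in the Id signals was not tested.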

How the data were processed

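RNA of 16 single diencephalons had been hybridised to 1 Affymetrix rat array each, 4 per group. The deposited values were linear signal intensities, which the authors made with MAS5, per the submitters' processing notes (version not given in the sources used here). After trimming 2% at each end, mean signals were equal on all arrays, so a global change in RNA would not be seen. Log2 signals were fitted for all groups together with limma 3.58.1 in R 4.3.3 (intensity trend), on 15521 probe sets with a mean of at least 7.35 (the median of 31042, after 57 controls were left out), with two-sided p-values adjusted by Benjamini-Hochberg over all of them and a threshold of 0.05. The fit was tested on simulated data. Gene names came from the platform annotation, in which 20826 probe sets had 1 gene, 436 had several and 9780 had none.

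Family members and gene lists were chosen with earlier results of these data known. Named were all Id probe sets, listed genes past the threshold (up to 6 per list and comparison) or else up to 2 of smallest p, 4 genes nearest each Id gene, and marker lists. A listed gene stood by its brightest probe set. Second probe sets of Acvr1, Smad1, Smad5 and Smurf2 were named after their values were seen. Precision is limited by 4 rats a group. Comparisons that share a group are not independent of each other.

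Rat numbers recur between PF and ZRPF (2, 4 and 6), with nothing in the labels to link rats of equal number, so that they were not used as pairs. Alternatives were quantile normalization, median centring, no filter, the highest 10348 probe sets, an offset of 32, no trend, array weights, fits to the groups compared alone, the replicate block and each array left out.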

Additional observations from a re-analysis of the deposited data

Results flagged for a closer look

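In groups of 4 arrays, 4 of 144 groups over 36 probe sets (the 8 Id probe sets and the genes named by the rule) held an array whose gap to its nearest neighbour took more of the group's range than Dixon's critical value allows. Chance gives about 1 in 20 such groups. For Id2 1368870_at in PF the share was 0.842, with PF rat 6 at 10.71 and the other rats at 9.96 to 10.08. The E protein genes had Tcf4 in ZRPF (0.840, lowest 11.78 against 11.98 to 12.02) and Tcf12 in PF (0.840, highest 10.29 against 10.11 to 10.13). The cell cycle inhibitor Cdkn1b in ZD had 0.831, with its lowest array at 11.79 and the others at 12.13 to 12.20. No other Id probe set had such an array in any group.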

How the results depend on the processing

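All 689 alternative values of single Id probe sets moved by less than the spread between rats. Counts past the threshold were 0 for Id probe sets and listed genes in both diet comparisons and the interaction under all alternatives. For ZR against ZD, the 2 Id calls became 1 with no filter, 1 of 5 probe sets among the highest 10348 and 1 in a fit to these groups alone; the 6 calls of listed genes became 3 in that fit. For ZRPF against PF, the highest 10348 probe sets left 1 Id call of 5 probe sets and 2 listed genes of 25. With 1 array left out, Id calls were 2 in ZRPF against PF and 1 to 2 in ZR against ZD (1 without ZD rat 3 or 9 or ZR rat 7, 10 or 13). Listed genes were 3 to 5 in both, with 3 in ZRPF against PF without PF rat 2 or 4 or ZRPF rat 6 and 3 in ZR against ZD without ZR rat 13. The replicate block, possible for PF and ZRPF rats 2, 4 and 6 with 2 residual degrees of freedom, kept 2 Id calls and left 1 listed gene, Bmpr2, of 6. In ZR against ZD, Id2 1375532_at passed in 16 of 16 alternatives, and Id4 1385923_at in 8 of the 15 that held it. The share of all probe sets called under each alternative is not given here, so nothing is read from these counts. Deviations of equal-numbered rats correlated at 0.079, 0.020 and 0.035, and those of unlike number at -0.096 to 0.078. Values this small, with so few rats of equal number, cannot show whether the numbers pair the rats. Of other values for listed genes, 54 lost a call and 1 gained one (Smad7). The r of Id1 and Id3 was 0.49 after quantile normalization and 0.57 with group means kept. Apart from smaller sets of probe sets or arrays, the cause was not tested. With 4 rats a group, differences of the size of one SE of the fit cannot be resolved.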
